A study of Mus musculus with 24 samples.

Results

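Granule cells are the principal neurons of the dentate gyrus, the region that receives the main cortical input to the hippocampus and passes it to CA3 through mossy fibres. They are marked by a set of genes, some of which neighbouring pyramidal cells use little or not at all. The level of such a gene in a piece of hippocampus can move with how much granule cell RNA the piece holds. The 8 genes described here are Prox1, Dsp, C1ql2, Calb1, Tdo2, Pdzd2, Stxbp6 and Maml2, chosen by name as granule cell markers out of 23845 genes in the RNA table and 20436 genes in the table of ribosome footprints. All 8 were present in both tables, and all 8 passed the filter on low counts in both. Tdo2 passed it in RNA through wild-type libraries alone.

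The markers differ in what they do and in how closely they belong to granule cells. Prox1 is a homeobox transcription factor that sets and keeps granule cell identity, and C1ql2 is a secreted protein that mossy fibre terminals release at their synapses. Dsp encodes desmoplakin, which ties desmosomes to intermediate filaments, and Tdo2 encodes the dioxygenase that opens tryptophan breakdown along the kynurenine pathway. Calb1 encodes calbindin, a calcium buffer that is also made by CA1 pyramidal cells and interneurons. Pdzd2 carries PDZ domains, Stxbp6 (amisyn) binds SNARE proteins, and Maml2 is a coactivator of Notch signaling.

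The libraries came from hippocampal slices of male mice aged 28 to 42 days, either wild type (WT) or Tsc2+/-, littermates on a C57BL/6J background. The Tsc2+/- mice carried a germline deletion of one Tsc2 allele, made by crossing Tsc2 floxed mice with a CMV-Cre line, so every cell type had the same genotype. Slices were given vehicle (artificial cerebrospinal fluid) or 100 µM DHPG for 5 min, which activates the group I metabotropic glutamate receptors, and all of them were then put into cycloheximide at 100 µg/ml, which stalls ribosomes. CA3 had been cut away before treatment, the methods describe dissection of CA1 after the incubation, and the study calls these replicates enriched for CA1. Each lysate pooled the slices of more than 1 mouse. RNA-seq and ribosome profiling, which sequences the mRNA fragments covered by ribosomes, were run on the same lysates, with 3 libraries for each of 4 groups and each assay, 24 in all.

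RNA libraries held 14801679 to 24067838 counts and footprint libraries 5296006 to 13613673. In the footprint libraries of replicates 2 and 3, 97.9% to 98.5% of the nonzero counts were even numbers, against 48.2% to 49.0% in replicate 1, so that counting error there may be larger than the counts show. Tsc2 itself was lower in all 6 Tsc2+/- libraries than in any WT library, at 128 to 137 against 186 to 214 CPM in RNA and 76.5 to 84.5 against 122.9 to 146 CPM in footprints. CPM here is a gene's count divided by its library's size after TMM scaling. Genes were called at an adjusted p under 0.1 (edgeR quasi-likelihood test, Benjamini-Hochberg over all genes tested), and the spread is between 3 pools a group.

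Per kilobase of transcript, Calb1 stood far above the other markers in RNA, at 38.4 CPM per kb (33.2 to 43.5 over the 12 libraries). Stxbp6 followed at 8.30 CPM per kb and did not overlap with C1ql2, at 3.53 (1.35 to 6.52). Maml2 (2.59), Prox1 (2.13) and Pdzd2 (1.94 CPM per kb) overlapped with C1ql2 and with one another over the 12 libraries. Tdo2 (0.256) and Dsp (0.254 CPM per kb) overlapped with each other and lay below the other 6 in every library. Per kilobase of coding sequence the footprint order was Calb1 (535), Stxbp6 (52.4), Prox1 (9.002), C1ql2 (6.69), Maml2 (4.51), Tdo2 (1.93), Pdzd2 (0.907) and Dsp (0.330 CPM per kb). In this order, Calb1 did not overlap with Stxbp6 over the 12 libraries, nor Stxbp6 with Prox1 or Maml2 with Tdo2, and the other neighbours did.

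Of the 8 markers, Prox1 passed the test between genotypes: its RNA fell by 0.41 on the log2 scale (SE 0.0852) in Tsc2+/- relative to WT slices when both treatments were averaged. All 8 fold changes of this comparison lay below 0 in RNA, with a median of -0.31, and all 8 lay below 0 in footprints, with a median of -0.29, while the medians over all genes tested were 0.00 in both. C1ql2, Dsp and Tdo2 had estimates of -0.84 to -1.29 on the log2 scale in both assays, none of which was called. The RNA estimate of Tdo2 cannot count toward a lower level, because Tdo2 passed the RNA filter through WT libraries alone. In these bulk samples, fewer granule cells in a pool, less marker RNA per granule cell and a change in other cells that make a marker cannot be told apart.

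**Figure D1:**
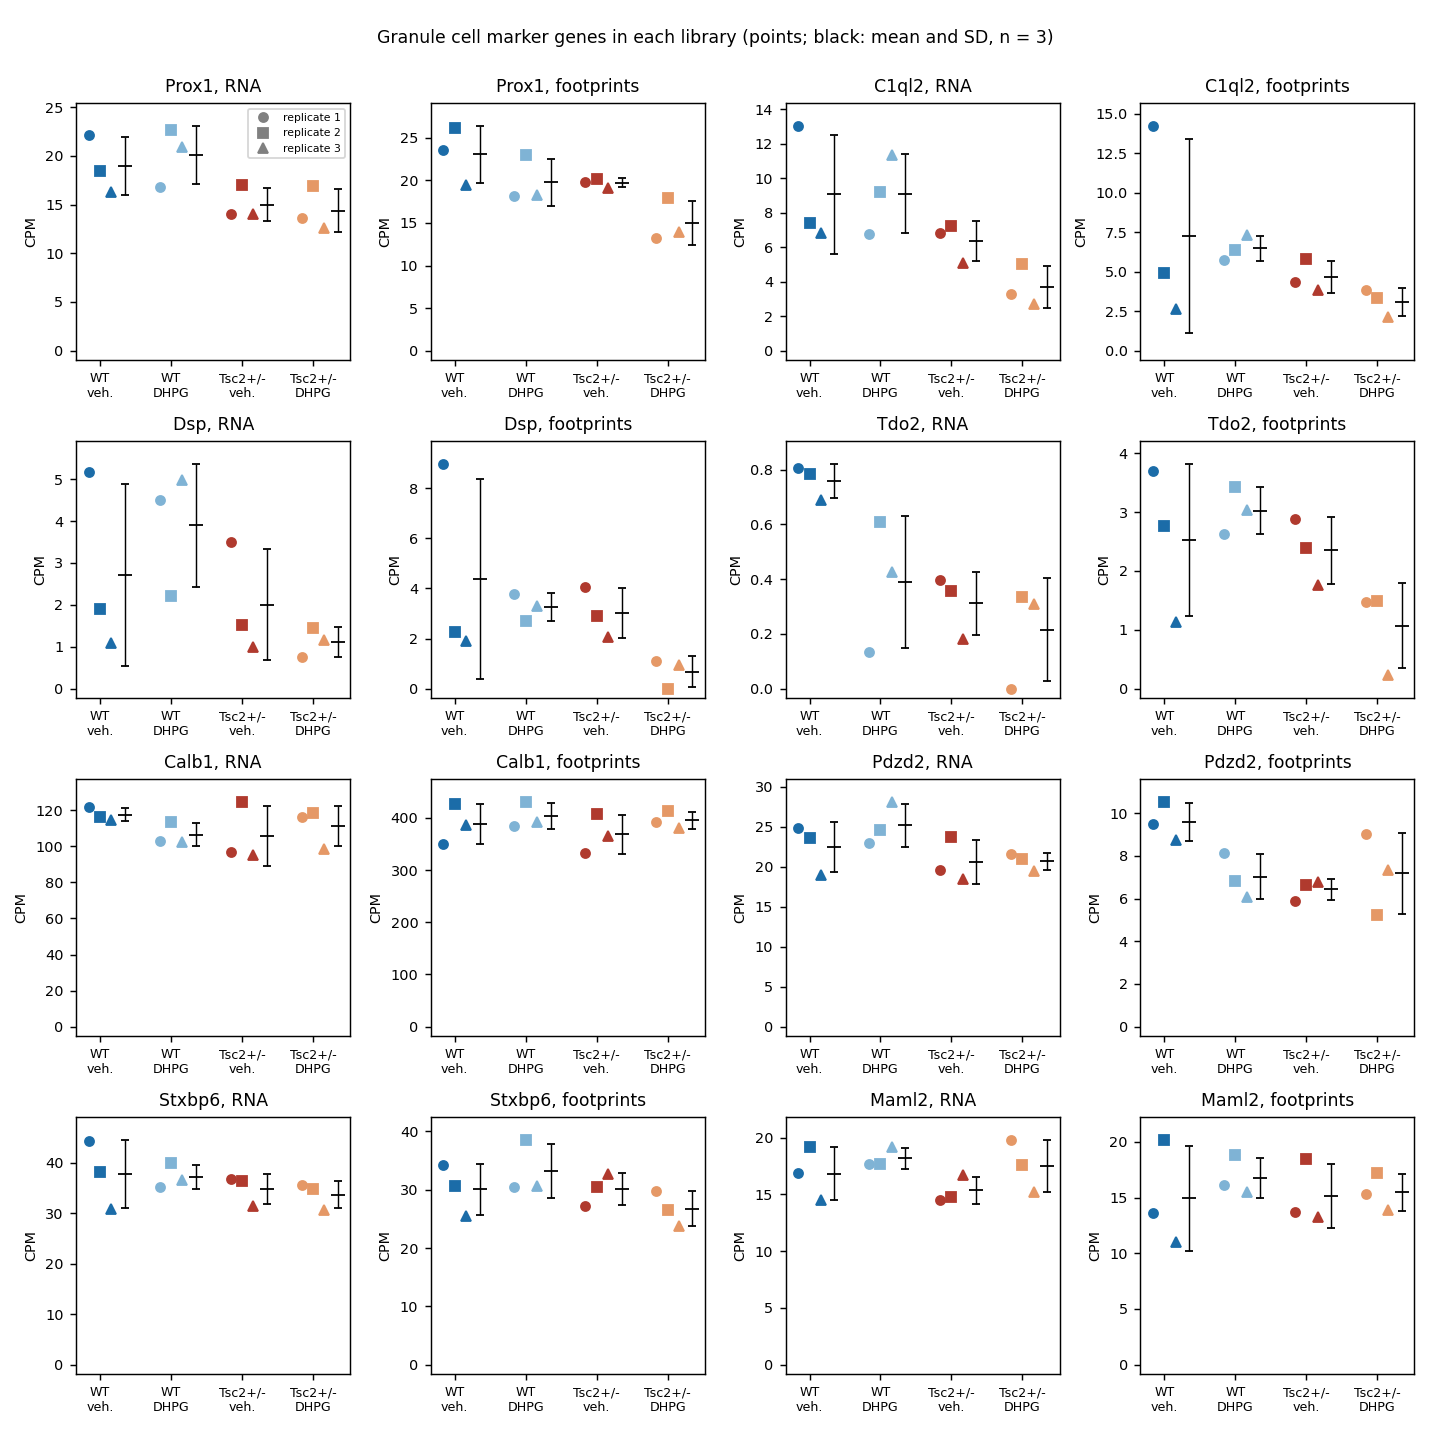
CPM (vertical axes, from 0) of the 8 granule cell markers in each of the 24 libraries, by genotype and treatment; circles, squares and triangles are replicates 1, 2 and 3, and black marks give the mean and SD of 3 libraries. The 3 Tsc2+/- DHPG libraries sit below the 3 WT DHPG libraries for C1ql2 and Dsp in both assays, while Calb1 lies between 95.2 and 125 CPM in every RNA library.

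Prox1 lies on chromosome 1 at 190118035 to 190170827 (GRCm38.p6, the mm10 build, as for all positions below), on the minus strand. Its RNA stood at 22.2, 18.4 and 16.2 CPM in WT vehicle replicates 1, 2 and 3 and at 16.8, 22.6 and 20.9 CPM in WT DHPG. It stood at 14.0, 17.0 and 14.0 CPM in Tsc2+/- vehicle and at 13.6, 16.9 and 12.6 CPM in Tsc2+/- DHPG. Of the 6 Tsc2+/- libraries, 4 were below every WT library, and the other 2, both of replicate 2, were above WT vehicle replicate 3 and WT DHPG replicate 1. The change averaged over treatments was called (adjusted p = 0.0161, edgeR quasi-likelihood test), in a comparison in which 0.227% of all 14516 genes tested were called, and Prox1 ranked 19th by p. The single comparisons gave -0.33 (SE 0.121) in vehicle and -0.50 (SE 0.121) after DHPG, with adjusted p = 0.921 and 0.2397 (edgeR). The call was lost without WT vehicle replicate 1 (adjusted p = 0.177), without WT DHPG replicate 3 (0.158), without all libraries of replicate 1 (0.158), 2 (0.155) or 3 (0.187), and with no replicate term in the model (0.114, all edgeR), and the fold change lay between -0.32 and -0.49 in these fits and in the 15 that kept the call.

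Prox1 footprints followed in part. They were 23.6, 26.1 and 19.4 CPM in WT vehicle and 18.1, 23.0 and 18.2 CPM in WT DHPG. They were 19.9, 20.2 and 19.2 CPM in Tsc2+/- vehicle and 13.2, 17.9 and 13.9 CPM in Tsc2+/- DHPG. The 3 Tsc2+/- DHPG pools were below all 9 other pools. The genotype change averaged over treatments was -0.31 (SE 0.0940, adjusted p = 0.535, edgeR), and the change with DHPG averaged over genotypes was -0.32 (SE 0.0940, adjusted p = 0.342), where 0.0311% of 12877 genes were called.

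C1ql2 (chromosome 1, 120340582 to 120343174, plus strand) varied more between pools than Prox1. Its RNA was 13.0, 7.38 and 6.79 CPM in WT vehicle and 6.75, 9.20 and 11.4 CPM in WT DHPG. It was 6.82, 7.20 and 5.05 CPM in Tsc2+/- vehicle and 3.31, 5.04 and 2.70 CPM in Tsc2+/- DHPG. The 3 Tsc2+/- DHPG pools were below the 3 WT DHPG pools, while the vehicle groups overlapped. The genotype estimate was -1.35 (SE 0.306, adjusted p = 0.506, edgeR) after DHPG, -0.49 (SE 0.289) in vehicle and -0.92 (SE 0.210, adjusted p = 0.289) averaged over treatments, where it ranked 55th by p of all genes. It was called in 9 of the 21 alternative fits of the averaged comparison and in 5 of 21 after DHPG.

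C1ql2 footprints had a single pool far above the rest. WT vehicle stood at 14.3, 4.89 and 2.66 CPM, from 108, 39 and 14 counts, so that replicate 1 was the highest of the 12 pools and replicate 3 the second lowest. WT pools under DHPG stood at 5.75, 6.35 and 7.35 CPM. Tsc2+/- pools stood at 4.34, 5.83 and 3.83 CPM under vehicle and at 3.82, 3.37 and 2.12 CPM under DHPG. The DHPG groups again did not overlap. The genotype estimates were -1.09 (SE 0.424) after DHPG and -0.85 (SE 0.291, adjusted p = 0.611, edgeR) averaged over treatments.

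Dsp (chromosome 13, 38151294 to 38198577, plus strand) had the widest RNA range among the markers with counts in every library, 6.91-fold between its highest and lowest. It was at 5.18, 1.90 and 1.08 CPM in WT vehicle and 4.50, 2.22 and 4.97 CPM in WT DHPG. It was at 3.51, 1.52 and 0.993 CPM in Tsc2+/- vehicle and 0.749, 1.44 and 1.15 CPM in Tsc2+/- DHPG, the 0.749 from 17 counts. The vehicle groups overlapped widely, and the DHPG groups did not overlap. The genotype estimate was -1.78 (SE 0.518, adjusted p = 0.791, edgeR) after DHPG and -1.08 (SE 0.358, adjusted p = 0.617) averaged. The biological coefficient of variation that edgeR fitted to Dsp RNA was 39.6%, higher than for 99.5% of the genes tested, against a common value of 7.01%.

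Dsp footprints gave the second smallest p of any gene for DHPG in Tsc2+/- and the fifth smallest for genotype after DHPG. They were 8.97, 2.26 and 1.90 CPM in WT vehicle and 3.79, 2.69 and 3.29 CPM in WT DHPG. They were 4.05, 2.92 and 2.06 CPM in Tsc2+/- vehicle and 1.11, 0 and 0.944 CPM in Tsc2+/- DHPG, the last from 9, 0 and 8 counts. A count of 0 in that library, of replicate 2, allows up to 0.561 CPM, taking 3 counts as the limit. The limit is higher if counting error there is larger than the counts show. All 3 Tsc2+/- DHPG pools were below the 9 other pools. The estimates were -2.13 (SE 0.494, adjusted p = 0.427, edgeR) for genotype after DHPG, -2.02 (SE 0.506, adjusted p = 0.9999) for DHPG in Tsc2+/- and -1.29 (SE 0.315, adjusted p = 0.268) for genotype averaged over treatments. The last was called under 4 of its alternatives, at adjusted p = 0.0245 with no filter, 0.0515 with the footprint counts of replicates 2 and 3 halved, 0.0599 without replicate 3 and 0.0449 without WT vehicle replicate 3 (edgeR).

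Tdo2 (chromosome 3, 81958412 to 81975728, minus strand) was near the limit of what the RNA libraries could show, with 0 to 19 counts. WT vehicle held 0.807, 0.783 and 0.689 CPM and WT DHPG 0.132, 0.609 and 0.426 CPM. Tsc2+/- vehicle held 0.396, 0.358 and 0.180 CPM and Tsc2+/- DHPG 0, 0.336 and 0.310 CPM, the 0 allowing up to 0.132 CPM. The 3 WT vehicle pools were the highest of the 12. Tdo2 RNA differed by -1.07 (SE 0.492, adjusted p = 0.780, edgeR) between genotypes averaged over treatments. Footprints were more frequent, and WT pools held 3.69, 2.76 and 1.14 CPM under vehicle and 2.62, 3.42 and 3.04 CPM under DHPG. Tsc2+/- pools held 2.89, 2.39 and 1.77 CPM under vehicle and 1.48, 1.495 and 0.236 CPM under DHPG. The DHPG groups did not overlap in footprints, and the estimate there was -1.57 (SE 0.445, adjusted p = 0.9995, edgeR), while in vehicle it was -0.10 (SE 0.400).

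Calb1 (chromosome 4, 15881264 to 15906709, plus strand) was the most abundant marker and moved least. Its RNA in WT pools was 122, 116 and 115 CPM under vehicle and 103, 114 and 103 CPM under DHPG. In Tsc2+/- pools it was 96.7, 125 and 95.2 CPM under vehicle and 116, 119 and 98.5 CPM under DHPG. The highest and the lowest of the 12 libraries were both Tsc2+/- vehicle pools. The genotype estimate averaged over treatments was -0.05 in RNA (SE 0.0473) and -0.05 in footprints (SE 0.0390), with 95% intervals of -0.14 to 0.04 and -0.12 to 0.03 in turn. Footprints ranged from 333 to 431 CPM, with adjusted p = 0.864 (edgeR) for genotype.

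Pdzd2, Stxbp6 and Maml2 lie on chromosome 15 (12359711 to 12739968, minus strand), chromosome 12 (44852484 to 45075118, minus strand) and chromosome 9 (13296561 to 13709533, plus strand). Pdzd2 RNA in WT pools was 24.9, 23.6 and 18.9 CPM under vehicle and 22.9, 24.5 and 28.1 CPM under DHPG. In Tsc2+/- pools it was 19.5, 23.8 and 18.5 CPM under vehicle and 21.6, 20.9 and 19.5 CPM under DHPG. Its DHPG groups did not overlap, and the averaged genotype estimate was -0.21 (SE 0.0769, adjusted p = 0.610, edgeR). Stxbp6 RNA ranged from 30.9 to 44.4 CPM in the WT and from 30.6 to 36.7 CPM in the Tsc2+/- libraries, with an estimate of -0.13 (SE 0.0612, adjusted p = 0.789). Maml2 RNA ranged from 14.5 to 19.2 CPM in WT and from 14.5 to 19.8 CPM in Tsc2+/- libraries, with an estimate of -0.09 (SE 0.0833), so that the ranges of the genotypes nearly coincided.

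**Figure D2:**
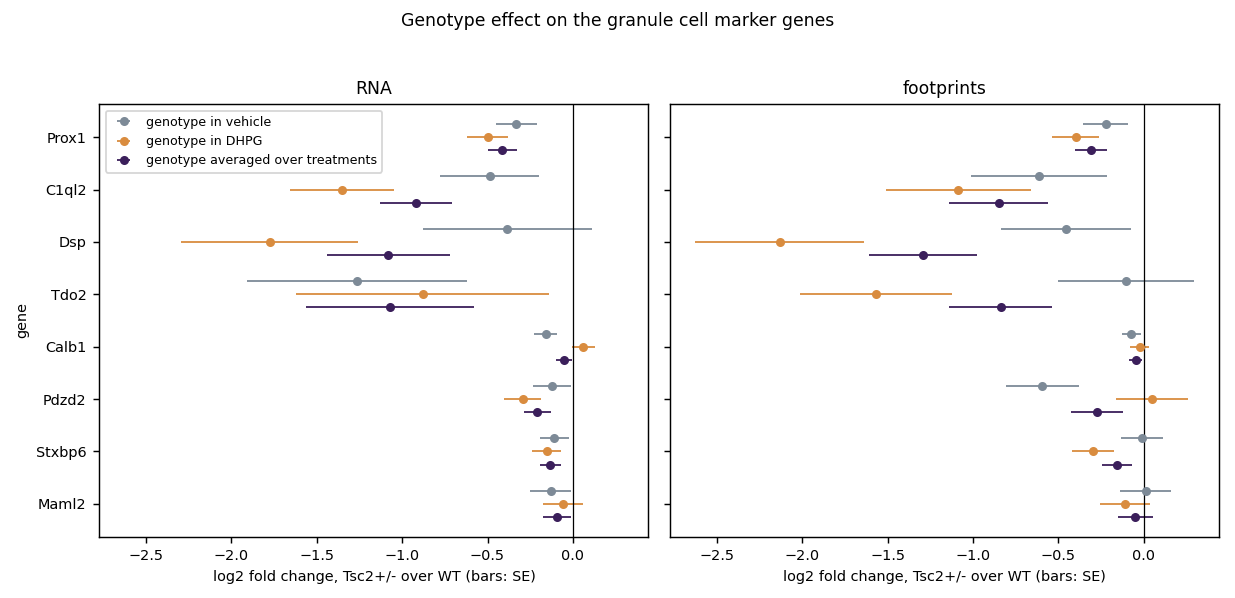
Log2 fold change of Tsc2+/- over WT (horizontal axis) of the 8 markers in RNA and footprints, in vehicle, after DHPG and averaged over both, with bars for 1 SE. The averaged estimates lie below 0 for all 8 genes in both panels, from -0.05 for Calb1 to -1.08 for Dsp in RNA and -1.29 for Dsp in footprints.

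Counted over the list, 6 of 8 markers had an unadjusted p under 0.05 toward lower RNA in Tsc2+/- in the averaged comparison, where 3.07% of all genes tested did, and 1 was called, where 0.0827% of all genes were called lower. Tdo2 is among the 6, although it passed the RNA filter through WT libraries alone. In vehicle the count was 2 of 8 (2.3% of all genes) and after DHPG 4 of 8 (2.36%), with 0 called in either, where 0.0896% and 0.0482% of all genes were. In footprints it was 4 of 8 in the averaged comparison (3.46%), 1 of 8 in vehicle (3.17%) and 5 of 8 after DHPG (2.05%), again with 0 called, against 0.0621%, 0.0233% and 0.0155% of all genes. The alternatives called 1 or 2 of the 8 in some of these fits.

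Separation of the genotypes was counted within each treatment. After DHPG, every Tsc2+/- library was below every WT library for 3 of 8 markers in RNA (Dsp, C1ql2 and Pdzd2), where 4.54% of all genes did so, and for 5 of 8 in footprints (Prox1, Dsp, C1ql2, Tdo2 and Stxbp6), where 5.1% did. In vehicle this held for 1 of 8 in RNA (Tdo2, 4.19% of all genes) and 1 of 8 in footprints (Pdzd2, 4.08%). The separation of Tdo2 shows nothing by itself, since that gene passed the RNA filter through WT libraries alone. Over all 6 against 6 libraries it held for 0 markers in either assay, against 0.11% and 0.155% of all genes. The difference between the genotype effects after DHPG and in vehicle was called for 0 of 8 markers in each assay (edgeR interaction), as for 0% of all genes. At an unadjusted p under 0.05 it held 1 marker in RNA (Calb1, 0.22, SE 0.0946), with 3.47% of all genes, and 3 in footprints (Dsp -1.68, Tdo2 -1.47 and Pdzd2 0.64), with 3.81%.

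DHPG itself moved no marker past the test in either genotype, in RNA, footprints or footprints per RNA. The share of all genes called was 0% in RNA in each genotype and 0.0207% averaged over both, and in footprints it was 0.0311% in WT, 0% in Tsc2+/- and 0.0311% averaged. At an unadjusted p under 0.05, RNA gave 1 marker in WT (Calb1, -0.14, SE 0.0672; 6.45% of all genes), 1 in Tsc2+/- (C1ql2, -0.79, SE 0.310; 4.32%) and 0 averaged over genotypes (7.49%). Footprints gave 1 in WT (Pdzd2, -0.45, SE 0.206), where 6.71% of all genes did. They gave 3 in Tsc2+/-, Dsp, Tdo2 (-1.21, SE 0.464) and Prox1 (-0.41, SE 0.137), with 4.03% of all genes, and 3 averaged, Prox1, Dsp (-1.18, SE 0.318) and Calb1 (0.08, SE 0.0390), with 6.82%. In Tsc2+/- footprints, the 3 DHPG pools were below the 3 vehicle pools for 4 of 8 markers, Prox1, Dsp, C1ql2 and Tdo2 (4.47% of all genes), and in RNA for C1ql2 alone (4.46%). In WT they were below for Calb1 and Tdo2 in RNA (4.92%) and for Pdzd2 in footprints (3.96%). The comparisons of genotype after DHPG and of DHPG in Tsc2+/- share the same 3 Tsc2+/- DHPG pools.

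A score per pool, the mean over the 8 markers of log2 CPM centred on each gene's mean, describes how the pools differed. In RNA it was 0.55, 0.21 and -0.07 in WT vehicle replicates 1 to 3 and 0.03, 0.27 and 0.39 in WT DHPG. It was 0.03, 0.00 and -0.36 in Tsc2+/- vehicle and -0.56, -0.10 and -0.40 in Tsc2+/- DHPG. The pools of the 2 genotypes overlapped, since WT vehicle replicate 3 was below 2 Tsc2+/- vehicle pools. From the lowest pool, Tsc2+/- DHPG replicate 1, to the highest, WT vehicle replicate 1, the score spanned 1.11 log2 units, or 2.15-fold. The mean of the 6 Tsc2+/- pools was 0.46 log2 units below that of the 6 WT pools, at 72.6% of the WT level, against an SD within groups of 0.24. This mean leans on C1ql2 (-0.92), Dsp (-1.08) and Tdo2 (-1.07), while the median of the 8 averaged genotype estimates was -0.31. Tdo2 entered it having passed the RNA filter through WT libraries alone.

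In footprints the score of WT pools was 0.61, 0.26 and -0.25 under vehicle and 0.20, 0.30 and 0.19 under DHPG. That of Tsc2+/- pools was 0.06, 0.16 and -0.09 under vehicle and -0.21, -0.57 and -0.65 under DHPG. The span was 1.26 log2 units, or 2.39-fold, and the Tsc2+/- mean was 74.0% of the WT mean. The median of the 8 averaged genotype estimates in footprints was -0.29. WT vehicle replicate 1 was again the highest pool. WT vehicle replicate 3 was again low, below all 3 Tsc2+/- vehicle pools. With the median over the 8 markers in place of the mean, the span was 0.61 in RNA and 0.71 in footprints.

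**Figure D3:**
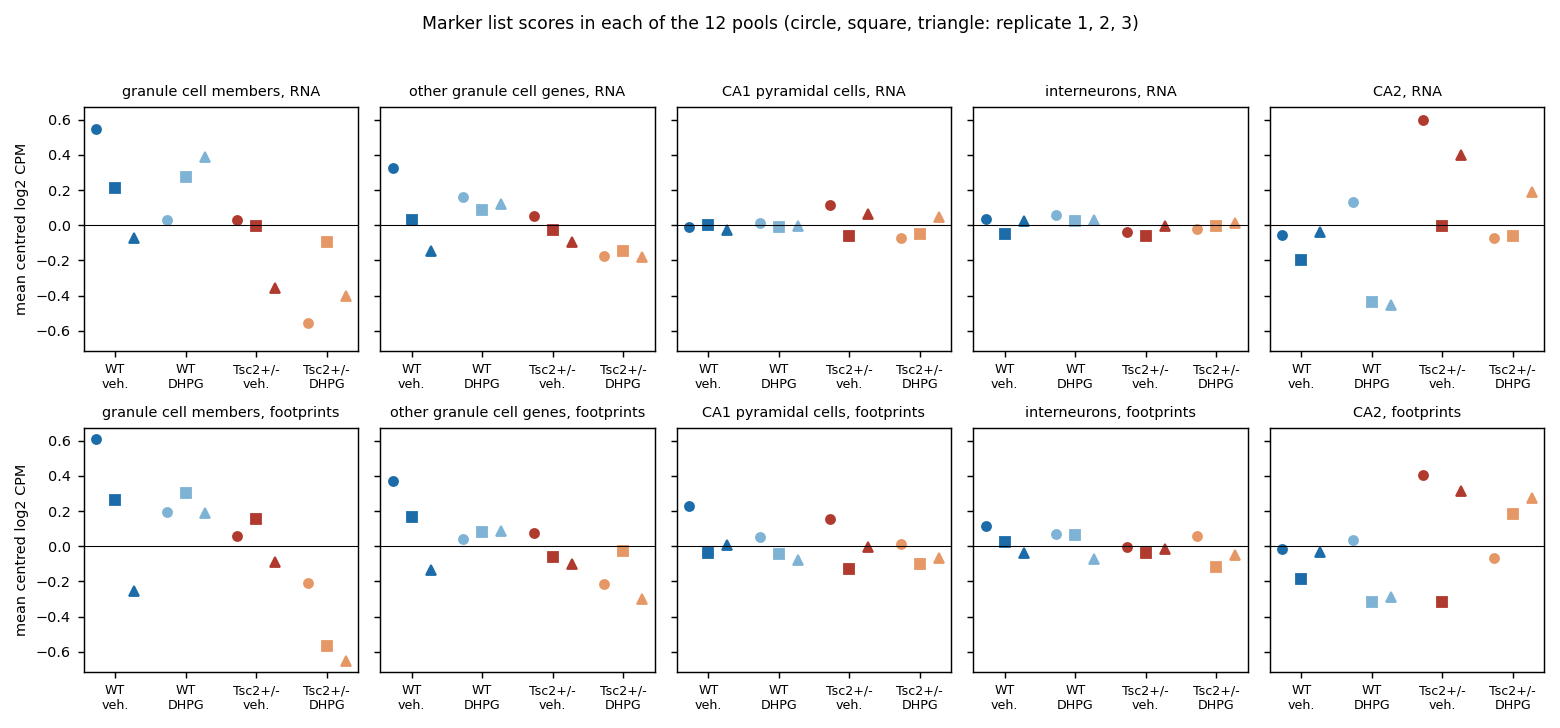
Mean centred log2 CPM (vertical axis, log2 scale) of 5 marker lists in each of the 12 pools, RNA above and footprints below; circles, squares and triangles are replicates 1, 2 and 3. The granule cell markers span 1.11 log2 units in RNA, while CA1 pyramidal cell and interneuron markers span 0.19 and 0.12.

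The CA1 pyramidal cell and interneuron markers spanned less over the pools than the 8 granule cell markers. So did a list of 11 further granule cell genes, described below, at 0.50 log2 units in RNA and 0.67 in footprints. Among the 8 markers, the RNA range was 3.20 log2 units for Tdo2, 2.64 for Dsp and 2.23 for C1ql2, followed by 0.84 for Prox1. Tdo2, Dsp and C1ql2 averaged 0.419, 2.43 and 7.05 CPM in RNA. The lowest gene of the CA1 list stood at 14.2 CPM and that of the interneuron list at 17.3 CPM. How far count level accounts for the spans was not tested. The 7 CA1 pyramidal cell genes, led by Fibcd1 at 642 CPM, spanned 0.19 log2 units over the RNA pools and 0.35 over the footprint pools, and the Tsc2+/- mean differed from WT by 0.01 log2 units in RNA and -0.04 in footprints. The 11 interneuron genes, led by Gad1 at 271 CPM, spanned 0.12 and 0.23. Among 5 tested CA3 genes, led by Cpne4 at 36.8 CPM, the span was 0.33 in RNA and 0.52 in footprints. Other lists, of 2 to 4 tested genes each, spanned more in RNA, with 0.84 for subiculum and cortex, 0.72 for meninges, 0.66 for hilar mossy cells, 0.65 for choroid plexus and 0.64 for thalamus. The score of the granule cell markers less that of the CA1 genes in the same pool kept WT vehicle replicate 1 as the highest pool in RNA, at 0.56, and Tsc2+/- DHPG replicate 1 as the lowest, at -0.48.

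All 4 CA2 genes, led by Rgs14 at 166 CPM, had estimates above 0 in Tsc2+/- in both assays, and 1 of them, Cacng5, a regulatory subunit of AMPA receptors, was called in RNA (+0.39, SE 0.0830, adjusted p = 0.0255, edgeR). Cacng5 RNA averaged 14.4 ± 0.894 and 14.1 ± 1.12 CPM in WT vehicle and DHPG and 19.5 ± 2.69 and 17.9 ± 3.30 CPM in the matching Tsc2+/- groups (SD, n = 3). Every Tsc2+/- mean therefore lay above the WT means, in the direction opposite to the granule cell markers. The CA2 score in Tsc2+/- pools was 127% of WT in RNA and 120% in footprints, with a span of 1.05 and 0.72. The 4 genes of subiculum and cortex, led by Fezf2 at 81.2 CPM, had estimates below 0 in RNA (median -0.17) with 0 called, and their score was 88.8% of WT in RNA and 95.3% in footprints. How these lists and the granule cell markers bear on each other was not tested.

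A further list of 11 genes known from granule cells, led by C1ql3 at 126 CPM, had estimates below 0 in Tsc2+/- for 11 of 11 in RNA and 8 of 11 in footprints, with medians of -0.13 and -0.12 and 0 called in the averaged comparison. The estimate furthest from 0 was that of Plk5, a brain-enriched member of the polo-like kinase family, at -0.98 (SE 0.245, adjusted p = 0.118, edgeR) in RNA and -1.16 (SE 0.313, adjusted p = 0.459) in footprints. The score of this list was 87.6% of WT in RNA and 86.7% in footprints. Markers of newborn granule cells, led by Sox11 at 17.7 CPM, gave 93.8% in RNA, with 4 of 5 tested genes below 0 (median -0.08), and 89.6% in footprints. Hilar mossy cell genes, led by Calb2 at 7.87 CPM, gave 105% in RNA from 4 genes and 91.5% in footprints from 2. The list for thalamus, led by Prkcd at 9.07 CPM, gave 104% in RNA and 94.3% in footprints, and that for meninges, led by Igf2 at 72.6 CPM, gave 90.3% and 103%, with 0 genes called in either. Of 6 choroid plexus genes 2 passed the filter, with a score of 102% in both assays, among them Kl at 18.6 CPM, while the defining gene Ttr stood at 0 to 0.210 CPM as a group mean.

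Likeness between the markers over the pools differed from pair to pair. After subtraction of the mean of each replicate number, Prox1 RNA had Pearson's r of 0.90 with C1ql2 over the 12 libraries, where C1ql2 ranked 3rd among 14515 genes, and of 0.87 with Stxbp6, which ranked 10th. Of the 28 pairs of markers, 26 had r above 0, with a median of 0.56 in RNA and a lowest value of -0.34, for Tdo2 with Maml2. Calb1 had r of -0.17 to 0.33 with the other markers, and Maml2 had 0.05 with C1ql2 and 0.08 with Dsp. In footprints 22 of the 28 pairs had r above 0, with a median of 0.29, and 6 had r below 0, the lowest being Prox1 with Calb1 at -0.38. These values include the differences between the 4 groups and are given as a description. Among genes of at least 1 CPM that are not markers, the 5 most like the RNA score were Sp8 (r = 0.93), C2cd4b (0.93), Plekha2 (0.92), Otud7b (0.91) and Mta2 (0.89), and the 5 least like it were 2510003E04Rik (-0.92), Rtn1 (-0.92), Fam81a (-0.90), 8430429K09Rik (-0.89) and Usp51 (-0.88), out of 13227. The 11 further granule cell genes had a median r of 0.57 with the score, from Glis3 (0.12, ranked 4949th) to Plk5 (0.83, ranked 20th), and their most abundant gene, C1ql3, had 0.43 and ranked 1475th. The 11 interneuron genes ran from -0.49 to 0.73, the highest being Gad1, which ranked 103rd. The 7 CA1 pyramidal cell genes ran from -0.72 (Fibcd1, ranked 13114th) to 0.40, and the 4 CA2 genes from -0.70 (Cacng5) to -0.32.

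RNA and footprints, 2 measurements of a lysate, ranked the pools alike for some markers. For C1ql2, Pearson's r between the log2 levels was 0.83 and Spearman's rho 0.87 over 12 pools (permutation p = 0.00075 and 0.00041, and adjusted p = 0.133 for r over 12785 genes). It was 0.85 without the 2 pools farthest from the median and 0.87 within replicate numbers (exact permutation p = 0.00463, adjusted p = 0.613), above 99.8% of genes. Prox1 had r = 0.70 and rho = 0.67 (permutation p = 0.0112 and 0.0205), Stxbp6 0.68 and 0.71 (0.0157 and 0.0137) and Dsp 0.62 and 0.83 (0.0199 and 0.00142), and adjusted p for r lay between 0.387 and 0.460 for these 3. No marker passed after adjustment. Within replicate numbers 0% of the 12785 genes passed, and the smallest p that the exact permutation test could give was 7.2e-05. For Prox1, Stxbp6 and Dsp, r fell to 0.55, 0.52 and 0.48 without the farthest 2 pools. Within replicate numbers it was 0.63, 0.65 and 0.57. Maml2 (r = 0.50), Calb1 (0.50), Tdo2 (0.26) and Pdzd2 (0.09) had permutation p of 0.0988 to 0.780, and the median r over all genes was 0.06.

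**Figure D4:**
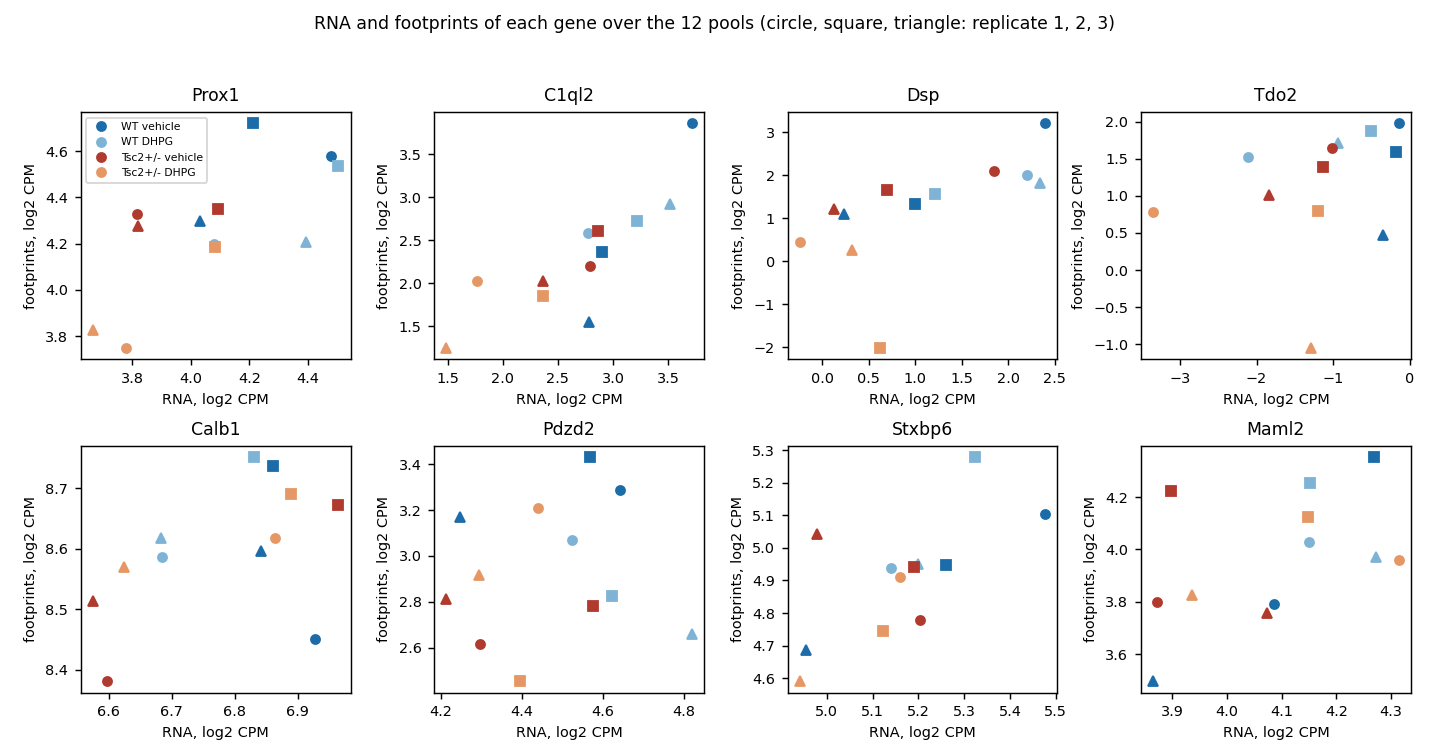
Log2 CPM in RNA (horizontal axes) against log2 CPM in footprints (vertical axes) of each marker over the 12 pools, by group and with a symbol per replicate number. C1ql2 runs from Tsc2+/- DHPG at the lower left to WT vehicle replicate 1 at the upper right (r = 0.83), and Pdzd2 shows no such order (r = 0.09).

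Footprints per RNA, the ratio of the CPM values in a pool, differed widely between the markers. Taken between mean CPM values, the ratio was 3.53 for Calb1 and 5.36 for Tdo2, the latter from RNA counts of at most 19. Pdzd2 had 0.3400, and the other 5 markers lay between 0.763 (C1ql2) and 1.16 (Dsp). By the mean log2 ratio over the pools, Calb1 (1.82) was higher than 95.9% of the 12785 genes. Tdo2 (2.32) was higher than 98.9% and Pdzd2 (-1.53) than 9.53%. These ratios set footprints on coding sequence against RNA over whole transcripts. Taken per kilobase, Calb1 and Tdo2 changed places at the top, Pdzd2 stayed lowest and the order between them changed. The ratio per kilobase was 13.9 for Calb1, 7.54 for Tdo2, 6.31 for Stxbp6, 4.22 for Prox1, 1.90 for C1ql2, 1.74 for Maml2, 1.30 for Dsp and 0.469 for Pdzd2. In log2 units of the CPM ratio, Calb1 stood at 1.72 ± 0.179 and 1.92 ± 0.0160 in WT pools under vehicle and DHPG, and at 1.81 ± 0.118 and 1.83 ± 0.101 in the matching Tsc2+/- pools (SD, n = 3). The 3 WT DHPG pools thus agreed closely, within the range of the Tsc2+/- pools.

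No marker was called for a change in footprints per RNA in any of the 7 comparisons, where the share of all genes called was 0% for genotype, for DHPG in Tsc2+/- and for the interaction, and 0.0469% for DHPG in WT and averaged over genotypes. For genotype averaged over treatments the estimates ran from -0.22 (Dsp, SE 0.567) to +0.22 (Tdo2, SE 0.516), with a median of 0.02, and 0 of 8 had an unadjusted p under 0.05, which 4.54% of all genes had. Estimates with such a p came from 1 marker for DHPG averaged over genotypes (8.52% of all genes), 2 for DHPG in WT (9.07%), 1 for genotype in vehicle (5.73%) and 1 for the interaction (4.08%). The first was Prox1, with -0.34 (SE 0.130, adjusted p = 0.468, edgeR). Calb1 gave 0.20 (SE 0.0899) for DHPG in WT, and Pdzd2 gave 0.83 (SE 0.318) for the interaction, -0.62 (SE 0.218, adjusted p = 0.344) for DHPG in WT and -0.48 (SE 0.226, adjusted p = 0.855) for genotype in vehicle, and its log2 ratio was -1.19 ± 0.147 in WT vehicle against -1.80 ± 0.352 in WT DHPG and -1.63 ± 0.202 in Tsc2+/- vehicle (SD, n = 3).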

How the data were processed

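Per the labels and the study's methods, the authors removed adapters with cutadapt, discarded reads from rRNA and tRNA with Bowtie2, mapped to mm10 with TopHat2, kept unique reads, removed duplicates by molecular identifier and estimated counts per gene with RSEM. The deposited values are expected counts, rounded to whole numbers, for RNA over transcripts and for footprints over coding sequences without 30 bases at each end. No column was without a sample, and samples were grouped by the labels' genotype, treatment and assay.

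Genes were kept with filterByExpr at a minimum count of 10, scaled by TMM and tested in edgeR 4.0.16 (R 4.3.3; quasi-likelihood F test, robust, two-sided) separately for RNA and footprints (12 libraries each), with terms for group and for replicate number, since the study counts its 3 replicates as 3 batches and corrected for batch. Footprints per RNA were tested with all 24 libraries, by the term in which group effects differ between assays. Averaged comparisons weigh both treatments, or both genotypes, equally. SE came from the F statistic, and a prior count of 2 was added for log2 CPM. The RNA and footprint relation was tested with 100000 permutations of pools, and with all 13824 permutations within replicate numbers. Simulated counts were tested with the averaged genotype comparison, for 200 genes shifted by a log2 of 0.5. Calls came for 95.5% of them in RNA (14317 genes tested), 84.5% in footprints (12790) and 73.0% in footprints per RNA (12681). Every simulated gene had the same biological coefficient of variation, near the common value of 7.01% in RNA, and no replicate effect. In RNA the fitted values were 39.6% for Dsp, 29.7% for Tdo2 and 23.5% for C1ql2, so these shares do not carry over to them. Lengths and positions are those of RefSeq on GRCm38.p6.

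The named genes were the 8 markers, the most abundant gene of each list and any of its genes called, the 5 genes most and least like the score, and Tsc2. Plk5, Glis3 and Ttr were named after their values were seen. One further list is not reported here. The markers, lists, rules and alternatives were chosen with earlier results of these data known. The p-values measure the spread between pools, and the number of mice the study gives equals its pools times the mice in a pool. Alternatives were DESeq2 1.42.0, ComBat (sva 3.50.0) then DESeq2, other scaling, no filter, no replicate term, footprint counts of replicates 2 and 3 halved, other score settings, an adjusted p under 0.05, and leaving out replicates or libraries.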

Additional observations from a re-analysis of the deposited data

How the results depend on the processing

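Of the fits that changed a count of called markers, the model with no replicate block called 0 markers in RNA for genotype averaged over treatments, where the main fit called 1 (Prox1). No filter on low counts called 2 there, 2 for genotype after DHPG in RNA, and 1 each in footprints for genotype after DHPG, genotype averaged and DHPG averaged. ComBat then DESeq2 called 2 in RNA for genotype averaged and 1 for genotype after DHPG, C1ql2 beside Prox1 in the former and C1ql2 alone in the latter. Halving the footprint counts of replicates 2 and 3 called 1 marker (Dsp) for genotype averaged and 1 for DHPG averaged. When a replicate number or library was left out, the count ran from 0 to 2 in RNA for genotype averaged and after DHPG, and from 0 to 1 in footprints for both. Prox1 kept its call in 10 of 15 such fits. DESeq2 without ComBat gave the main counts of markers in all 21 comparisons. The score's span was 0.61 in RNA and 0.71 in footprints with the median over markers, 1.36 in RNA with a prior count of 0.5, while leaving out a replicate number gave 0.79 to 1.11 in RNA and 0.95 to 1.26 in footprints. No marker's fold change with an unadjusted p under 0.05 changed sign under an alternative. The causes of these changes were not tested.

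Same-numbered libraries deviated together only weakly (r of 0.02 to 0.14 over genes in RNA and 0.03 to 0.26 in footprints, above 0.1 in 5 and 9 of 18 pairs), although all 12 libraries of each assay correlated best with their own number. The main model kept the replicate number as a term because the study counts its replicates as batches, and the weak correlation by itself would not have called for it. Without the replicate block, genes called fell from 33 to 16 in RNA and from 8 to 4 in footprints for genotype averaged. Tdo2 in RNA, and Dsp and Tdo2 in footprints of Tsc2+/- DHPG, rest on under 20 counts a library, which limits what their values can show. Dsp RNA fell to 17 counts in Tsc2+/- DHPG replicate 1, its lowest RNA library. Footprint counts were also under 20 in some pools elsewhere. Dsp fell to 10 in WT vehicle and 14 in Tsc2+/- vehicle, and Tdo2 to 6 and 12 in the same groups. C1ql2 fell to 14 in WT vehicle and 18 in Tsc2+/- DHPG.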
